A study of Mus musculus with 8 samples.

Results

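The TRAV5 genes are variable (V) genes of the T cell receptor alpha (TRA) chain. They were followed here through single-cell TCR tables of mouse CD8+ T cells. The members were all cells, not marked as multiplets, whose TRA chain had been given a V gene named TRAV5-, TRAV5D- or TRAV5N-. They came to 4012 of the 107882 non-multiplet cells with a TRA chain, or 3.72% (exact 95% binomial interval 3.61 to 3.83%). TRAV5-4 was named in 2933 of these cells, TRAV5D-4 in 569 and TRAV5-1 in 510, and no cell carried the name TRAV5N-4.

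CD8+ T cells were taken from thymus and spleen at baseline, and from thymus and tumor of mice that carried B16-OVA or B16-F10 melanoma. The mice were Pdcd1fl/fl, or Pdcd1 cKO mice in which Cre under the E8I enhancer of the CD8 genes removes the floxed Pdcd1 gene, which encodes PD-1, from CD8+ T cells. The cells were isolated with CD8a+ kits (thymus and spleen) or CD8 TIL microbeads (tumor), pooled in 8 barcoded sublibraries and deposited as 14 tables, each named for an animal and a tissue. Each of 7 animals gave a thymus table. The second table was of spleen for mouse-155A and for mouse-155C, and of tumor for mouse-164B, mouse-164C, mouse-160A, mouse-160C and mouse-160B. The genotype, tumor line and baseline status of each table are not in the labels, so tables were not grouped by them and no test between groups was made. Each value below belongs to a table or to all tables pooled, and its interval covers counting error only, since cells of 1 animal are not replicates. The tables hold TCR chains only, so that CD8 itself could not be examined in these cells. Between 2523 and 20511 non-multiplet cells per table had a TRA chain. The TRAV11-TRAJ18 pairing that marks invariant NKT cells made up 5.78 to 10.9% of these cells in the thymus tables and 0.200 to 1.13% in the others, and it counts in every denominator below.

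A TRA chain is made when a V gene is joined to 1 of the joining (J) genes, TRAJ, in developing thymocytes. The joint, with any bases added without a template, encodes the CDR3, the loop that reaches over the bound peptide. The TRAJ genes lie in a row behind the V genes, with the highest numbers nearest to the V genes. A cell can rearrange the same locus again, which joins a V gene further out to a TRAJ gene further in.

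The functional TRAV5 genes lie on the plus strand of chromosome 14 (GRCm39) among 130 annotated TRAV genes, counted from the end that is far from the TRAJ genes. TRAV5-1, at chr14:52860023-52860539, is number 5 in that row and 1532 kb from the outermost annotated TRAJ. TRAV5D-4, at chr14:53239170-53239689, is number 40 and 1153 kb away. TRAV5N-4, at chr14:53550361-53550879, is number 74 and 842 kb away. TRAV5-4, at chr14:53941464-53941971, is number 112 and 450 kb away, so that it lies closest to the TRAJ genes of the family. Each has 2 exons of 343 bases in all. TRAV5D-2, TRAV5D-3, TRAV5N-2, TRAV5N-3 and TRAV5-2 are annotated as V pseudogenes.

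The V exons of TRAV5D-4 and TRAV5N-4 differ at 0 of 343 bases, so a cell named TRAV5D-4 may have used either gene. TRAV5D-4 differs from TRAV5-4 at 6 bases, counted from 1 at the 5′ end of the spliced V exons with the TRAV5-4 base written before the position: C66T, G134C, A141G, G142A, T239C and A245G. The final 98 bases are identical. TRAV5-1 differs from TRAV5-4 at 70 bases (79.6% identity). The ends of the 3 V exons, bases 241 to 343, are shown because they decide which name a short read can be given. Capitals mark the bases that differ from TRAV5-4 and, in TRAV5-4, base 245.
TRAV5-4: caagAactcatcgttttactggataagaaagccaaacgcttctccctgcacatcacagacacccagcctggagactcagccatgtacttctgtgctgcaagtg
TRAV5D-4: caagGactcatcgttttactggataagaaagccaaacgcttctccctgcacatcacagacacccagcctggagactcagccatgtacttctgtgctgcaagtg
TRAV5-1: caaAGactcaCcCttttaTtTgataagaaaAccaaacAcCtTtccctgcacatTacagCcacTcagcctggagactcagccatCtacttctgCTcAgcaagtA
The recombination signals that follow the V exons, where the recombinase cuts, are shown because they are the part of each gene that faces the TRAJ genes at joining. Capitals mark the heptamer and the nonamer, which frame a spacer of 23 bases.
TRAV5-4 signal: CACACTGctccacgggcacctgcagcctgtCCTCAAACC
TRAV5D-4 signal: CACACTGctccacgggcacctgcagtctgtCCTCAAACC
TRAV5-1 signal: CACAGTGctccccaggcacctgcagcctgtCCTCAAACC
The signals of TRAV5-4 and TRAV5D-4 differ at 1 of 39 bases, in the spacer. Those of TRAV5-4 and TRAV5-1 differ at 3 bases, of which 1 is in the heptamer. The TRAV5-4 heptamer, CACACTG, follows 8 of 110 functional TRAV genes (7.27%), whereas CACAGTG, that of TRAV5-1, follows 93 of them (84.5%).

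The names TRAV5-4 and TRAV5D-4 were not equally certain. Of the 4012 cells, 3221 could be matched to an assembled TRA sequence. All 456 matched TRAV5D-4 chains reached base 245 and had G there. Among 2330 matched TRAV5-4 chains, 1205 reached base 245 and all had A, while in 1125 (48.3%, 46.2 to 50.3%) the aligned V stretch did not cover it. Every matched chain of either name that did not cover base 245 had thus been named TRAV5-4. Whether these chains were short or were aligned over a shorter part was not tested. TRAV5D-4 made up 16.2% (15.0 to 17.5%) of all cells with either name, and 27.5% (25.3 to 29.7%) of those whose chain reached base 245. The matched TRAV5-1 chains, 435 in all, each reached base 245. In 3 tables (mouse-160B thymus, mouse-164B thymus and mouse-164C tumor) only 91.9%, 40.3% and 28.5% of TRAV5 cells could be matched.

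The share of TRAV5 cells was close to the same in all 7 thymi and spread widely among the tumors. In the thymus tables it ran from 3.31% in mouse-160B (2.94 to 3.71%) over a median of 3.68% to 4.01% in mouse-155A (3.43 to 4.66%). The spleen tables had 4.78% (4.25 to 5.36%) in mouse-155A and 4.05% (3.37 to 4.81%) in mouse-155C, and each interval overlapped that of the animal's own thymus.

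The tumor tables had 1.71% (1.26 to 2.26%) in mouse-160A, 1.95% in mouse-160C (1.63 to 2.30%) and 2.23% in mouse-164B (1.94 to 2.54%). They had 3.60% (3.35 to 3.86%) in mouse-164C, and 6.00% (5.61 to 6.41%) in mouse-160B. The first 3 of these lay below the interval of the animal's own thymus, mouse-164C lay inside it, and mouse-160B lay above it. In all, the thymus share was the higher one in 4 of 7 animals. Of the 58 TRAV genes with at least 200 cells, 10.3% had a higher share of cells in the thymus table in all 7 animals, and 0% a lower share in all 7. Genes with the higher share in fewer animals were not counted, so these values do not place the TRAV5 count among them. The highest tumor share was 3.51 times the lowest for the family as a whole. By name it was 6.27 times the lowest for TRAV5-1, 3.46 for TRAV5-4 and 2.57 for TRAV5D-4, against a median of 4.88 times over 55 other single TRAV genes (range 1.37 to 36.3).

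**Figure D1:**
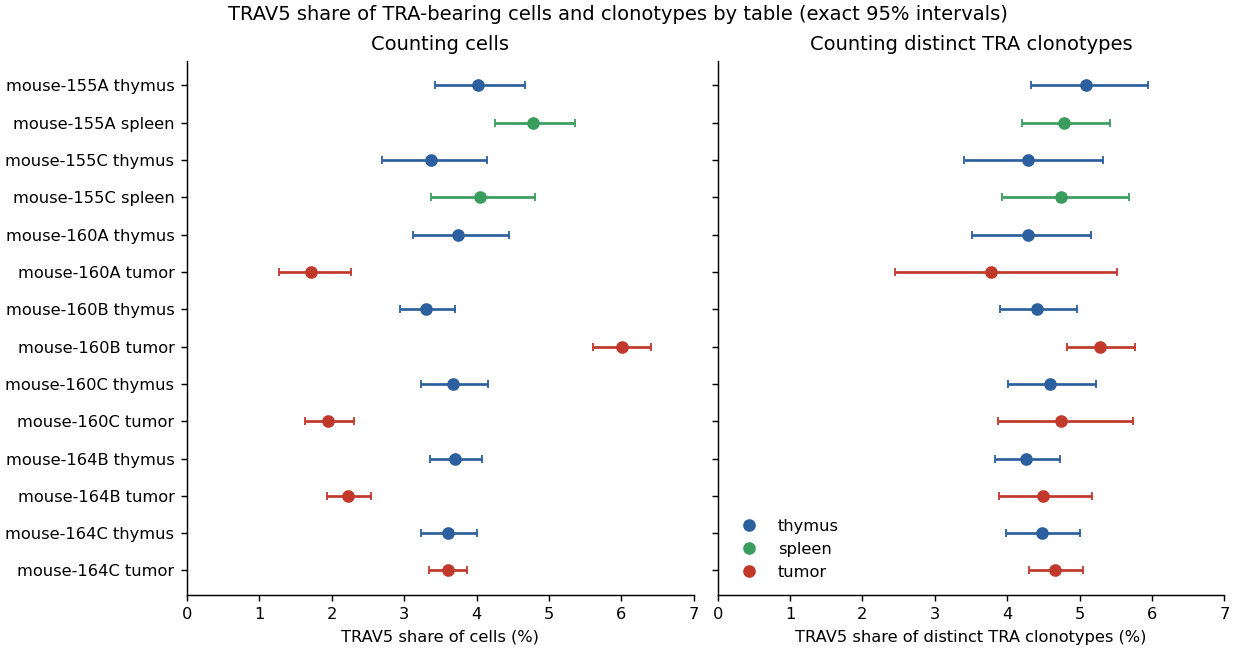
TRAV5 share of TRA-bearing cells (left) and of distinct TRA clonotypes (right) in each of the 14 tables, in percent with exact 95% intervals; colors mark the tissue. Counted by cells the tumor tables run from 1.71 to 6.00%, and counted by clonotypes from 3.77 to 5.28%, close to the 4.27 to 5.09% of the thymus tables.

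Most of the spread among tumors was gone when each distinct TRA clonotype (V gene, J gene and CDR3 amino acid sequence) of a table was counted once. TRAV5 then made up 3147 of 67776 clonotypes, or 4.64% (4.49 to 4.804%). It made up 4.27 to 5.09% in the thymus tables, 4.75 and 4.78% in the spleen tables and 3.77 to 5.28% in the tumor tables. All 7 intervals of an animal's second tissue overlapped the interval of its thymus. The thymus share was higher in 2 of 7 animals, and 5.17% of the 58 TRAV genes were higher and 3.45% lower in the thymus table in all 7 animals. Here too, genes with the higher share in fewer animals were not counted. The highest tumor share was then 1.40 times the lowest for the family, and 2.53 times for TRAV5-1, 1.20 for TRAV5-4 and 1.95 for TRAV5D-4, against a median of 1.71 times over the 55 other single genes.

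TRAV5-4 carried the family in each table. It made up 73.1% (71.7 to 74.5%) of TRAV5 cells, and its share of all TRA-bearing cells was 2.17 to 3.00% in thymus, 2.92 and 3.04% in spleen and 1.35 to 4.69% in tumor. The tumor values were 1.35% in mouse-160A, 1.48% in mouse-160C, 1.51% in mouse-164B, 2.80% in mouse-164C and 4.69% in mouse-160B, in the same order as those of the family.

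TRAV5-1 ranged from 0.357 to 0.690% in the thymus tables. It was 1.08% (0.834 to 1.38%) in the spleen of mouse-155A, where 1 clonotype described below held 19 of its 64 cells, and 0.332% in that of mouse-155C. In tumors it was 0.107% in mouse-160A, 0.160% in mouse-160C, 0.282% in mouse-164B, 0.322% in mouse-164C and 0.670% in mouse-160B.

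TRAV5D-4 ranged from 0.238 to 0.652% in thymus, was 0.659 and 0.796% in spleen, and ranged from 0.249 to 0.641% in tumor. Because all matched chains that did not cover base 245 were named TRAV5-4, these shares may leave out an unknown number of TRAV5D-4 cells. Among chains that reached base 245, TRAV5D-4 was named in 16.7% (mouse-155C thymus, 6 of 36) to 39.05% (mouse-164B tumor, 41 of 105) of those with either name.

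The TRAV genes whose share of distinct clonotypes moved most like a TRAV5 gene over the 14 tables were different for each member. For TRAV5-4 they were TRAV8-1, TRAV6N-6 and TRAV8-2 (Spearman's rho 0.85, 0.71 and 0.60). For TRAV5-1 they were TRAV16N, TRAV4D-3 and TRAV6-4 (0.74, 0.61 and 0.61), and for TRAV5D-4 TRAV10, TRAV6-3 and TRAV7-3 (0.45, 0.44 and 0.40). Each is the top of 55 genes compared over 14 tables that share animals, and the shares of a table sum to a fixed total, so these are descriptions only.

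TRAV5-4 used mainly the part of the TRAJ row nearest to the V genes, and TRAV5-1 and TRAV5D-4 the middle and the far part. The median TRAJ number was 42 among TRAV5-4 cells (order-statistic 95% interval 42 to 42), 23 among TRAV5-1 cells (23 to 24) and 22 among TRAV5D-4 cells (22 to 23), against 27 among cells with other TRAV genes. Counted by distinct clonotypes, the medians were again 42, 23 and 22, and 27 for the others. TRAJ61 to TRAJ41, the stretch nearest to the V genes, held 52.6% (50.5 to 54.7%) of TRAV5-4 clonotypes, 3.70% (2.13 to 5.95%) of TRAV5-1 clonotypes and 6.05% (4.15 to 8.48%) of TRAV5D-4 clonotypes, against 22.3% of the others. The middle stretch, TRAJ40 to TRAJ21, held 40.04% of TRAV5-4 clonotypes, 59.3% of TRAV5-1 and 58.4% of TRAV5D-4 clonotypes, against 51.6% of the others. TRAJ20 to TRAJ1 held 7.35% of TRAV5-4 clonotypes, 37.0% of TRAV5-1 and 35.5% of TRAV5D-4 clonotypes, against 26.1% of the others. The intervals of TRAV5-1 and TRAV5D-4 overlapped in each of the 3 stretches, and those of TRAV5-4 overlapped neither.

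**Figure D2:**
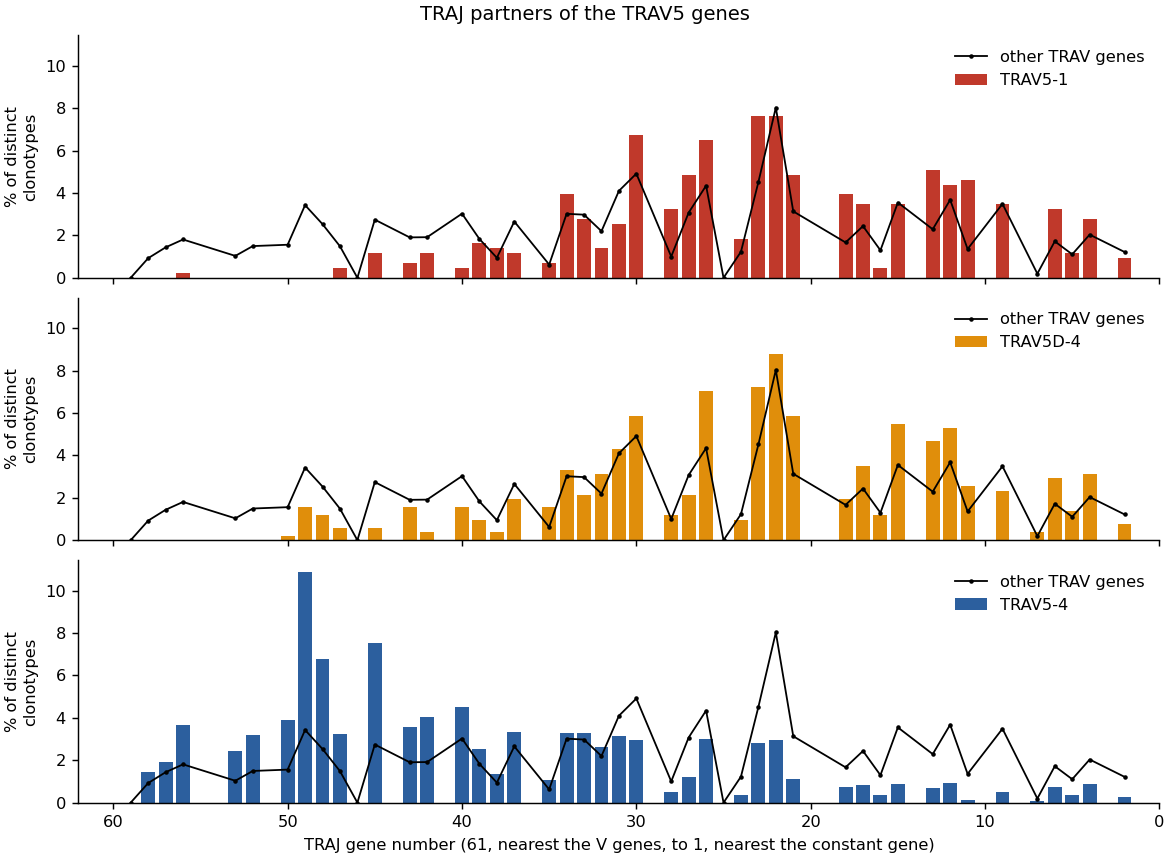
Share of distinct clonotypes with each TRAJ gene, in percent, for TRAV5-1, TRAV5D-4 and TRAV5-4 (bars) and for all other TRAV genes (black line, the same in each panel). TRAV5-4 peaks at TRAJ49 with 10.9%, whereas TRAV5-1 and TRAV5D-4 peak at TRAJ22 and TRAJ23 and have few clonotypes beyond TRAJ40.

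Among TRAV5-4 clonotypes the leading partners were TRAJ49 (240 of 2203, 10.9%, 9.62 to 12.3%), TRAJ45 (166, 7.54%) and TRAJ48 (149, 6.76%). Other TRAV genes had these TRAJ genes in 3.43%, 2.74% and 2.53% of clonotypes. TRAJ49 was also the partner with the highest ratio to the other genes, 3.18, and TRAJ12 the one with the lowest among partners with at least 20 clonotypes, 0.259 (21 clonotypes, 0.953% against 3.68%).

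TRAV5-1 was led by TRAJ22 and TRAJ23 (33 of 432 each, 7.64%) and TRAJ30 (29, 6.71%). Among its partners with at least 20 clonotypes, the highest ratio was that of TRAJ11, at 3.41 (20 clonotypes, 4.63% against 1.36%), and the lowest that of TRAJ22, at 0.951.

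TRAV5D-4 was led by TRAJ22 (45 of 512, 8.79%), TRAJ23 (37, 7.23%) and TRAJ26 (36, 7.03%). Among its partners with at least 20 clonotypes, the highest ratio was that of TRAJ13, at 2.05, and the lowest that of TRAJ31, at 1.05. This limit keeps out partners that are rare with a gene. A second limit, chosen after these values were seen, kept the partners for which the share in other TRAV genes predicted at least 10 clonotypes. The lowest ratios were then 0.100 for TRAV5-4 (TRAJ11, 3 clonotypes), 0.214 for TRAV5D-4 (TRAJ45, 3 clonotypes) and 0 for TRAV5-1 (TRAJ48 and TRAJ49, each with 0 of 432 clonotypes, which allows a share of up to 0.694%).

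TRAJ22 and TRAJ23 were among the 3 leading partners of both TRAV5-1 and TRAV5D-4, and of the leading partners of TRAV5-4 none was shared with them.

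The difference between TRAV5-4 and the other 2 names was present in every table. Over the 14 tables the median TRAJ number of distinct clonotypes ran from 36.5 to 43 for TRAV5-4, from 17.5 to 27 for TRAV5-1 and from 17.5 to 26 for TRAV5D-4, so that the lowest TRAV5-4 median was above the highest median of either other name. The smallest tables held 20 TRAV5-4, 2 TRAV5-1 and 3 TRAV5D-4 clonotypes. By tissue, the TRAV5-4 median was 42 in thymus, 43 in spleen and 42 in tumor, that of TRAV5-1 was 22, 22 and 23, and that of TRAV5D-4 was 22, 22 and 23.

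**Figure D3:**
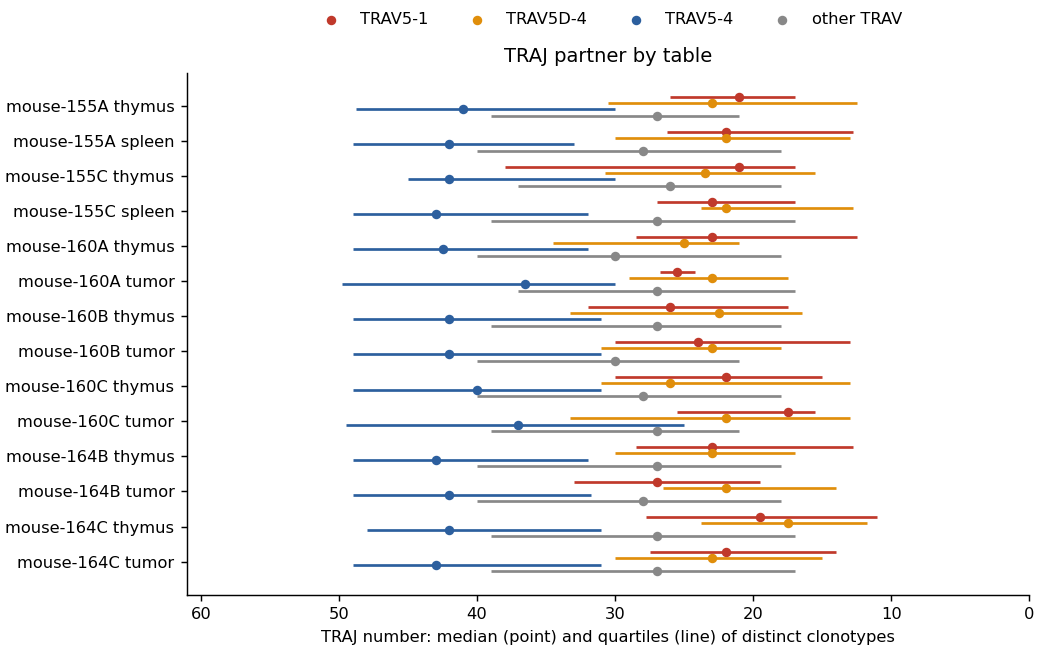
Median TRAJ number (points) and quartiles (lines) of distinct clonotypes in each table, for TRAV5-1, TRAV5D-4, TRAV5-4 and all other TRAV genes; the axis runs from the TRAJ genes nearest the V genes at the left. In each table the TRAV5-4 median, 36.5 or more, lies to the left of the others.

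The split did not rest on the uncertain names. TRAV5-4 chains that reached base 245 had a median TRAJ number of 43 (42 to 45, 1205 cells), and those that did not cover it, which may include TRAV5D-4 and TRAV5N-4 chains, had 42 (40 to 42, 1125 cells). Counted by clonotypes the medians were 45 and 40. TRAV5D-4 chains that reached it had 22 (22 to 23, 456 cells). TRAV5-4 and TRAV5D-4 thus differed in TRAJ partner. Their V exons are 98.3% identical and their signals differ at 1 base. The cause of the difference in TRAJ partner was not tested.

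The cells with 2 TRA chains gave a further set of TRAV5 chains, namely those listed as the second TRA chain, which the choice of members had not used. Among 16613 non-multiplet cells with a second TRA chain, it was TRAV5-4 in 319 (1.92%), TRAV5-1 in 113 (0.680%) and TRAV5D-4 in 64 (0.385%). The median TRAJ number of these second chains was 42 (40 to 45) for TRAV5-4, 26 (24 to 28) for TRAV5-1 and 26.5 (22 to 31) for TRAV5D-4, and 28 for second chains with other V genes. In 57 of these cells the first chain was a TRAV5 chain too. Without them, and with each second chain of a table counted once, the medians were 42 (38 to 45, 241 chains), 26 (23 to 27, 93 chains) and 27 (22 to 31, 60 chains). The second chain beside a TRAV5-4 first chain had a TRAJ median of 32 (30 to 34) over 514 cells, of which 73 carried 1 same TRAV16N-TRAJ48 chain of 1 clonotype described below. Counted once per chain pair of a table it was 28 (28 to 30, 406 pairs), against 26 (22 to 28, 55 pairs) beside TRAV5-1 and 28 (27 to 28, 108 pairs) beside TRAV5D-4, and 28 beside other first chains. Unrearranged V genes can be listed with TRAJ28, as described below for TRAV5-1. Second chains were not screened for them, so any such chains count in all of these second-chain medians.

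The TRAJ medians of the TRAV5 genes lay close to those of their neighbors in the locus, and the part of position in them was not tested. TRAV4-4-DV10, just outside TRAV5-4, had a median of 45, and TRAV8-2, the next gene inside it with at least 200 cells, had 42. TRAV4D-4 and TRAV6D-7, which flank TRAV5D-4, had 22 and 23, and TRAV6-1, the neighbor of TRAV5-1, had 23. Over the 58 TRAV genes with at least 200 cells the Spearman correlation of the order in the locus with the median TRAJ number was 0.79 (55 genes without the TRAV5 names, 0.79), and it was 0.93 over the 35 genes without D or N in the name. Genes are not independent replicates, and a D or N name can be open to the same ambiguity as TRAV5D-4, so no p is given.

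**Figure D4:**
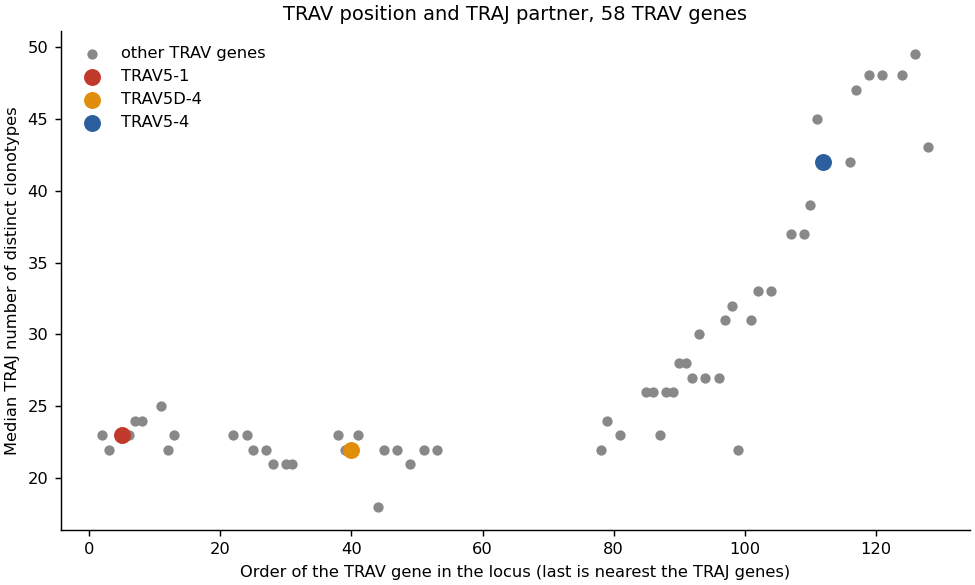
Median TRAJ number of distinct clonotypes against the order of the TRAV gene in the locus, for the 58 TRAV genes with at least 200 cells. TRAV5-1 and TRAV5D-4 (23 and 22) lie in the flat part far from the TRAJ genes, and TRAV5-4 (42) on the rise toward them.

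The CDR3 itself differed little within the family. It had a mean of 13.2 ± 1.36 residues (SD over 432 clonotypes) with TRAV5-1, 13.3 ± 1.20 (512) with TRAV5D-4 and 13.5 ± 1.28 (2203) with TRAV5-4, against 13.7 ± 1.68 with other genes. Untemplated bases averaged 2.94, 2.78 and 2.90 per distinct CDR3 nucleotide sequence of a table, with SDs of 2.21, 2.05 and 2.17. They were absent in 14.01%, 14.5% and 13.4% of these sequences, with overlapping intervals, and in 16.3% (16.0 to 16.6%) of those of other genes.

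The number of transcripts read per chain was low for TRAV5 and other genes alike. It had a median of 1 for TRAV5-1 and 2 for TRAV5-4 and TRAV5D-4, against 1 for other genes, and a mean of 2.07, 2.68 and 2.62, against 2.38. A single transcript stood behind 52.5% (48.1 to 57.0%) of TRAV5-1 chains, 48.0% (46.2 to 49.8%) of TRAV5-4 chains and 38.1% (34.1 to 42.3%) of TRAV5D-4 chains, against 55.3% (54.9 to 55.6%) of those of other genes. A second TRA chain was listed in 10.98% (8.40 to 14.02%) of TRAV5-1 cells, 17.5% (16.2 to 18.9%) of TRAV5-4 cells and 19.0% (15.8 to 22.4%) of TRAV5D-4 cells, against 15.3% (15.1 to 15.6%) of the others. Without the 136 paired cells of the largest TRAV5-4 clonotype, of which 99 had a second chain, the TRAV5-4 share was 14.8% (13.5 to 16.2%), so that its interval held the value of the others. The part of transcript depth in these shares was not tested.

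A TRB chain was also known for 2590 of the 4012 cells. The TRB partners of TRAV5 lay closer to those of other TRA chains than the TRAJ partners did. Among 1579 distinct paired TRAV5-4 clonotypes the leading TRBV genes were TRBV12-1 (9.75%), TRBV13-2 (9.69%) and TRBV3 (8.42%), against 8.16%, 11.8% and 6.66% of clonotypes with other TRAV genes. Among partners with at least 20 clonotypes its highest ratio was that of TRBV20, at 1.27 (30 clonotypes, 1.90% against 1.497%), and its lowest that of TRBV4, at 0.621 (37 clonotypes, 2.34%, 1.66 to 3.22%, against 3.77%). TRAV5-1 was led by TRBV13-2 (34 of 315), TRBV12-1 (33) and TRBV16 (31), with ratios of 0.919, 1.28 and 1.37, and no other TRBV gene with at least 20 clonotypes lay outside these. TRAV5D-4 was led by TRBV13-2 (43 of 378), TRBV13-3 (30) and TRBV13-1 (26), and its ratios under the same limit ran from 0.810 for TRBV12-1 to 1.39 for TRBV14. Over partners with at least 10 clonotypes predicted from the other genes, TRBV ratios of the 3 names ran from 0.522 (TRBV13-3 with TRAV5-1) to 1.44 (TRBV2 with TRAV5D-4), whereas those of TRAJ partners ran from 0 to 3.18.

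Clonal expansion of TRAV5 cells was found mostly in tumors. Cells of a table with the same 2 CDR3 amino acid sequences, TRA and TRB, formed 1 clonotype, which was called expanded from 2 cells upward. Of 2590 paired TRAV5 cells, 368 were in expanded clonotypes (14.2%, 12.9 to 15.6%), against 19.2% (18.9 to 19.5%) of paired cells with other TRAV genes. By gene it was 17.0% (15.3 to 18.7%) of TRAV5-4 cells, 11.7% (8.54 to 15.6%) of TRAV5-1 cells and 3.14% (1.63 to 5.42%) of TRAV5D-4 cells. Without the tumor table of mouse-160B, these shares were 6.95% (5.69 to 8.39%), 7.96% (5.11 to 11.7%) and 2.48% (1.08 to 4.82%), so that the order of TRAV5-4 and TRAV5-1 turned and their intervals overlapped.

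In the thymus, 5 of 7 tables held no expanded TRAV5 clonotype, with 0 of 970 paired cells, which allows a share of up to 0.309% (3 counts of the total). The other two had 5 of 47 cells (10.6%, 3.55 to 23.1%, mouse-155C) and 3 of 94 cells (3.19%, 0.663 to 9.04%, mouse-160A). Thymic cells with other TRAV genes were in expanded clonotypes in 0.353 to 5.67% of cases. The 5 tables were picked for their count of 0, so their limit does not hold for the thymus tables as a whole. Over all 7 thymus tables it was 8 of 1111 paired TRAV5 cells (0.720%, 0.311 to 1.41%). With other TRAV genes it was 672 of 28023 (2.40%, 2.22 to 2.58%).

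In the tumors the share was 50.0% (31.3 to 68.7%, 30 paired cells) in mouse-160A, 43.9% (39.7 to 48.2%, 540 cells) in mouse-160B and 30.2% (19.2 to 43.0%, 63 cells) in mouse-160C. It was 12.8% (7.63 to 19.7%, 133 cells) in mouse-164B and 10.9% (8.19 to 14.02%, 470 cells) in mouse-164C. Cells with other TRAV genes had 80.0%, 20.3%, 71.5%, 51.5% and 23.1% in the same order. The TRAV5 share was thus below that of the rest of the same tumor in 4 of 5 animals and above it in mouse-160B, with no overlap of counting intervals in any of the 5. The difference was not tested over animals. Cells of 1 clonotype are not independent, which these intervals do not allow for. Counted by clonotypes, the expanded ones were 4 of 19 TRAV5 against 100 of 456 others in mouse-160A. They were 14 of 317 against 309 of 6518 in mouse-160B and 4 of 48 against 172 of 1226 in mouse-160C. In mouse-164B they were 7 of 123 against 250 of 3041, and in mouse-164C 12 of 431 against 181 of 10035. The direction thus turned in mouse-160B and mouse-164C. The rest of each tumor pools all other TRAV genes, and its largest clonotype had 225, 79, 356, 647 and 827 cells in the order given above. How many single TRAV genes also lay below this pool was not counted.

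**Figure D5:**
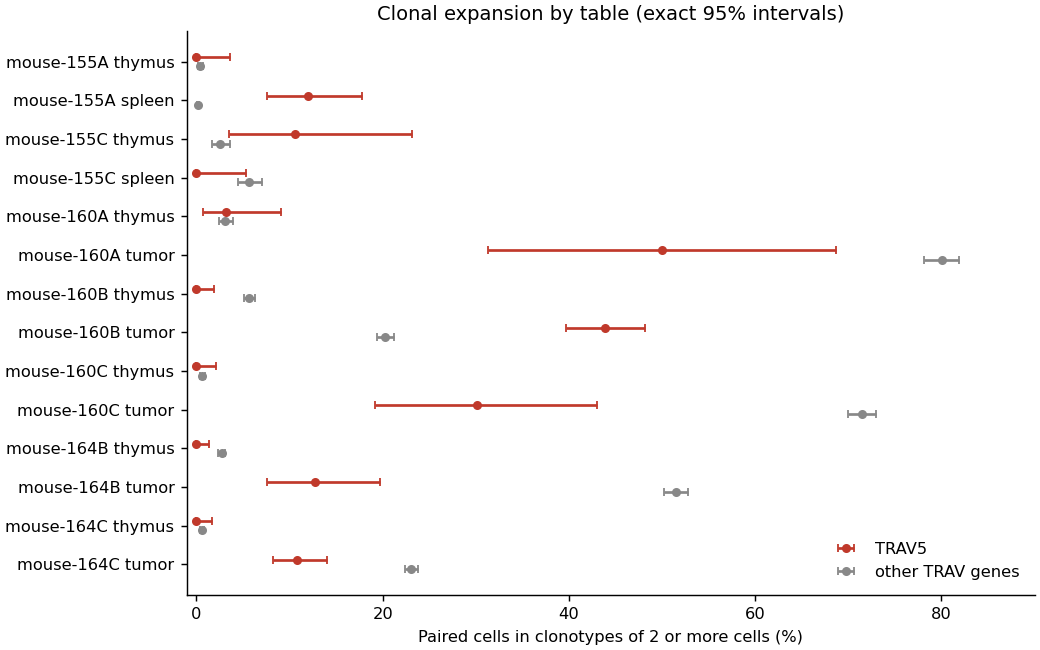
Share of paired cells in clonotypes of 2 or more cells, in percent with exact 95% intervals, for TRAV5 cells and for cells with other TRAV genes in each table. TRAV5 lies to the left of the other genes in 4 of 5 tumors and to the right in mouse-160B (43.9% against 20.3%).

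Leaving out mouse-160B tumor brought the pooled share of expanded TRAV5 cells from 14.2% to 6.39% (5.37 to 7.54%). That table held 237 of the 368 cells. There were 19 TRAV5 clonotypes of at least 3 cells in a table. Of these, 16 were in tumor tables, 8 of them in mouse-160B, 2 were in thymus tables and 1 was in a spleen table. By name, 15 were TRAV5-4, 3 were TRAV5-1 and none was TRAV5D-4 alone. In 1 clonotype, the TRAJ26/TRBV13-1 clonotype of mouse-160A thymus, the 3 cells were divided between the names TRAV5-4 and TRAV5D-4, as happened in 4 of 39 clonotypes of 2 or more cells with either name.

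The CDR3 sequences of the 8 TRAV5 clonotypes of 10 or more cells are shown because they hold 271 of the 368 expanded TRAV5 cells, and with them the largest of mouse-160A tumor. TRA chains are given 5′ to 3′, with untemplated bases in capitals, and TRB chains in lower case throughout.
mouse-160B tumor, 136 cells, TRAV5-4-TRAJ42: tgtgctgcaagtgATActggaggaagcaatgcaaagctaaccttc
mouse-160B tumor, 136 cells, TRBV29-TRBJ2-2: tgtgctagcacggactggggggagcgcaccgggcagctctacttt
mouse-160B tumor, 32 cells, TRAV5-4-TRAJ48: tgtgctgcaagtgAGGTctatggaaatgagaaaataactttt
mouse-160B tumor, 32 cells, TRBV12-2-TRBJ2-5: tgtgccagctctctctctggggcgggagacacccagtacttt
mouse-160B tumor, 22 cells, TRAV5-4-TRAJ38: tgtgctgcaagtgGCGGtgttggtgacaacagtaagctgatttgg
mouse-160B tumor, 22 cells, TRBV13-2-TRBJ2-3: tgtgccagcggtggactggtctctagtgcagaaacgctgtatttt
mouse-160B tumor, 13 cells, TRAV5-1-TRAJ24: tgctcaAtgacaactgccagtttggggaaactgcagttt
mouse-160B tumor, 13 cells, TRBV14-TRBJ2-2: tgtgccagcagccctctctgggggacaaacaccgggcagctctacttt
mouse-160B tumor, 11 cells, TRAV5-4-TRAJ49: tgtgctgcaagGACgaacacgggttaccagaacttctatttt
mouse-160B tumor, 11 cells, TRBV3-TRBJ2-1: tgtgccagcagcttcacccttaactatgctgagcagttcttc
mouse-164C tumor, 25 cells, TRAV5-4-TRAJ48: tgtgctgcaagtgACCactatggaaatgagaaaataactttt
mouse-164C tumor, 25 cells, TRBV12-2-TRBJ2-5: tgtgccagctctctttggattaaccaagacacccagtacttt
mouse-160C tumor, 13 cells, TRAV5-4-TRAJ50: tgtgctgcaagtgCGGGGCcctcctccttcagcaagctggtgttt
mouse-160C tumor, 13 cells, TRBV12-1-TRBJ2-1: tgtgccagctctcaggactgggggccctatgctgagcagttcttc
mouse-160A tumor, 8 cells, TRAV5-4-TRAJ32: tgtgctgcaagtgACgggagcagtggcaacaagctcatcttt
mouse-160A tumor, 8 cells, TRBV12-1-TRBJ2-7: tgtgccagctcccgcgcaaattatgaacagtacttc
mouse-155A spleen, 19 cells, TRAV5-1-TRAJ27: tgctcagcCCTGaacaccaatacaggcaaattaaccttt
mouse-155A spleen, 19 cells, TRBV1-TRBJ1-4: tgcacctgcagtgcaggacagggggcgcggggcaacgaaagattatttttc
The mouse-160B tumor clonotype with TRAJ42 and TRBV29 was the largest of that table, with 136 of 8331 paired cells (1.63%, 1.37 to 1.93%). It was absent from the thymus of the same animal and from all other tables as a pair. It had 1 TRA nucleotide sequence in its 136 cells and a median of 7 TRA transcripts per cell. In 99 of the cells a second TRA chain was listed, and in 73 of them it was 1 same TRAV16N-TRAJ48 chain. A further 120 barcodes of the table with this pair were marked as multiplets and are not counted. Cells with the TRA chain alone included, it held 184 of the 842 TRAV5 cells of the tumor. The TRAV5 share of that tumor was 4.75% (4.404 to 5.12%) without them, and 4.05% (3.73 to 4.396%) without the TRA chains of all 5 TRAV5 clonotypes of 10 or more cells, against 3.31% (2.94 to 3.71%) in the thymus of the same animal. With the TRAV11-TRAJ18 cells left out of both tables, the latter value was 4.07% (3.74 to 4.41%) in the tumor against 3.71% (3.30 to 4.16%) in the thymus, and the intervals overlapped. The 29 clonotypes of 10 or more cells with other TRAV genes (643 paired cells) stayed in the denominator. Leaving out TRAV5 clonotypes alone had to lower the share, so the overlap does not decide how much of the difference they made.

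The others of 10 or more cells in mouse-160B tumor were a TRAV5-4-TRAJ48 clonotype of 32 cells, a TRAV5-4-TRAJ38 clonotype of 22, a TRAV5-1-TRAJ24 clonotype of 13 and a TRAV5-4-TRAJ49 clonotype of 11. Mouse-164C tumor held a TRAV5-4-TRAJ48/TRBV12-2 clonotype of 25 cells, and mouse-160C tumor a TRAV5-4-TRAJ50/TRBV12-1 clonotype of 13, of which 11 cells listed 1 same second TRA chain, TRAV14N-3-TRAJ45. The largest in mouse-160A tumor had 8 cells (TRAV5-4-TRAJ32/TRBV12-1) and that in mouse-164B tumor 5 (TRAV5-4-TRAJ31/TRBV13-2). The mouse-160A clonotype had the TRB CDR3 amino acid sequence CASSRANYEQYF and no cell in the thymus of that animal. The paper describes a clonotype with this TRB sequence as specific for a known OVA peptide, found in tumor and absent from thymus. Antigen binding of the mouse-160A cells was not tested. The TRAV5-1-TRAJ27/TRBV1 clonotype of mouse-155A spleen, with 19 of 3323 paired cells, was the largest clonotype of its table. Its cells came from 7 sublibraries and had a median of 1 TRA transcript and 12 TRA reads, against a median of 145.5 reads in all other paired cells of that table. The part of read depth in this clonotype was not tested. In that spleen only 4 of 3148 paired cells with other TRAV genes were in an expanded clonotype.

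The clonotypes of 32 and 25 cells, in different animals, shared TRAV5-4, TRAJ48, TRBV12-2 and TRBJ2-5 and differed in both CDR3 sequences. Another clonotype with these genes had 4 cells in mouse-164C tumor. A comparison made after these values were seen gave TRBV12-2 in 5 of 101 paired TRAV5-4-TRAJ48 clonotypes (4.95%, 1.63 to 11.2%) and in 88 of 1478 TRAV5-4 clonotypes with other TRAJ genes (5.95%, 4.802 to 7.28%). Without these 3 tumor clonotypes the former was 2 of 98 (2.04%, 0.248 to 7.18%). Of these 2, 1 was the thymus cell of the clonotype of 32 cells, which counts again because clonotypes were taken by table.

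Few TRAV5 clonotypes were found in both tables of an animal. There were 6, namely 4 in mouse-160B (thymus and tumor), 1 in mouse-160A (thymus and tumor) and 1 in mouse-155C (thymus and spleen). They were 6 of 1106 thymic TRAV5 clonotypes (0.542%, 0.199 to 1.18%) and 6 of 1162 of the second tissue. Over all TRAV genes 170 of 28614 thymic clonotypes were shared (0.594%, 0.508 to 0.690%), so the pooled TRAV5 share lay within counting error of that of all clonotypes. Single animals differed. In mouse-160B it was 4 of 196 against 48 of 5501 over all TRAV genes. It was 1 of 92 against 18 of 2123 in mouse-160A and 1 of 44 against 15 of 1216 in mouse-155C. In mouse-164B it was 0 of 275 against 70 of 7423, and the remaining animals had no shared TRAV5 clonotype either. None of the 6 had 2 or more cells in both tables. The TRAV5-4-TRAJ48 clonotype of 32 tumor cells and the TRAV5-1-TRAJ24 clonotype of 13 in mouse-160B each had 1 cell in the thymus. In mouse-155C, a TRAV5-4-TRAJ26/TRBV31 clonotype had 3 cells in the thymus and 1 in the spleen, and in mouse-160A a TRAV5-4-TRAJ32/TRBV29 clonotype had 1 in the thymus and 3 in the tumor. In each of the 6, the paired nucleotide sequence was the same in both tables, and no thymus cell shared both later well indices and the sublibrary with a cell of its clonotype in the second tissue. Between animals, 1 of 2261 distinct TRAV5 clonotypes recurred.

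Recurrence of TRA chains between animals was counted by CDR3 nucleotide sequence, whether or not a TRB chain was known. Of 1448 distinct TRAV5-4 CDR3 nucleotide sequences 226 were found in at least 2 animals (15.6%, 13.8 to 17.6%), as were 20 of 331 with TRAV5-1 (6.04%, 3.73 to 9.18%) and 24 of 382 with TRAV5D-4 (6.28%, 4.07 to 9.204%). Over all other TRAV genes it was 14.3% (13.9 to 14.6%), and over the 55 other genes with at least 200 cells the share ran from 2.33 to 18.3% with a median of 12.2%. Cell numbers differed between the names (2933 for TRAV5-4, 510 for TRAV5-1 and 569 for TRAV5D-4), and sequences were counted by name. The part of cell number and naming in these shares was not tested. All 7 chains found in at least 6 animals are shown, with untemplated bases in capitals and, in the TRAV5-1 chain, the bases that lie past the V exon in the genome in capitals.
TRAV5-4-TRAJ42, 7 animals: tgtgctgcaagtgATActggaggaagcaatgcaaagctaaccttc
TRAV5-1 listed with TRAJ28, 7 animals: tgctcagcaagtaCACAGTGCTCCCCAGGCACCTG
TRAV5-4-TRAJ48, 6 animals, 3 untemplated bases: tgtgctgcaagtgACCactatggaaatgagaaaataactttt
TRAV5-4-TRAJ38, 6 animals: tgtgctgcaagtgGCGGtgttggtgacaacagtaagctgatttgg
TRAV5-4-TRAJ48, 6 animals, 2 untemplated bases: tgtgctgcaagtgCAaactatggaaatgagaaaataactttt
TRAV5-4-TRAJ45, 6 animals: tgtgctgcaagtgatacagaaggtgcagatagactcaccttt
TRAV5D-4-TRAJ22, 6 animals: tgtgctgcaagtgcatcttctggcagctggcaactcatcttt
The TRAV5-4-TRAJ42 chain was that of the largest tumor clonotype. It was found in 216 cells of all 7 animals, with 184 of them in mouse-160B tumor. Of the 32 cells elsewhere, 15 had both later well indices (rounds 2 and 3 of the barcoding) and the sublibrary of one of these 184 cells, whereas 241 of 93820 other cells outside that table did (0.257%). Without the 15 cells the chain was found in 6 animals. The cause was not tested. The TRAV5-4-TRAJ48 chain with 3 untemplated bases was in 35 cells of 6 animals with 3 TRB CDR3 sequences, and 16 of these cells were in mouse-164C tumor. The TRAV5-4-TRAJ38 chain, that of the clonotype of 22 cells, was in 33 cells, with 28 in mouse-160B tumor, and in 4 animals without the 2 cells that shared these indices. The other TRAV5-4-TRAJ48 chain was in 8 cells, and in 5 animals without 1 such cell.

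The TRAV5-1 chain listed with TRAJ28 was found in 19 cells of 10 tables and all 7 animals. Its 35 bases are the end of TRAV5-1 and the 22 bases that follow it on chromosome 14, heptamer included, so that it is the unrearranged gene and holds no J sequence. Each of the 19 chains rested on 1 transcript. They made up 19 of the 21 TRAV5-1 chains, among 435, whose CDR3 length was not a multiple of 3, whereas this was so in 4 of 456 TRAV5D-4 and 10 of 2330 TRAV5-4 chains. No such run of at least 25 bases past the V exon was found under the other TRAV5 names, and 2898 of 82851 matched cells with other TRAV genes had one.

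By contrast, the TRAV5-4-TRAJ45 chain, with 0 untemplated bases, was found in 17 cells of 6 animals with 13 different TRB CDR3 sequences, and at most 3 of its cells were in 1 table. The chain with TRAJ22 and 0 untemplated bases was named TRAV5D-4 in 10 cells of 6 animals and TRAV5-4 in 9 cells of 5 animals, with the same CDR3 sequence under both names.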

How the data were processed

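Paired TCR libraries of CD8+ T cells were made by the study with the Parse Evercode TCR kit. For each animal and tissue the authors deposited a table with 1 row per cell barcode, giving the V gene, J gene, CDR3 and read and transcript counts of each chain, and a table of assembled chains aligned to germline. The genome build is GRCm39 per the submitters' processing notes, and the sources used here name neither a pipeline version nor the germline set used to assign V genes. Transcript counts were used as deposited, with no normalization. The 8 samples are sublibraries that mix all animals and belong to no group in the labels, so animal and tissue were taken from each table's deposited name. Barcodes marked as multiplets and those with no TRA chain were left out. No barcode was identical in 2 tables, but 240899 of 253531 had the round 2 and round 3 well indices and the sublibrary of one in another table.

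Shares carry exact (Clopper-Pearson) 95% intervals and medians order-statistic intervals. Both were tested on simulated data. Gene coordinates, V exons and recombination signals were read from GRCm39 with its GENCODE annotation, whose build is that of the files. Files of clonotype frequencies were not used. The members and lists were chosen with earlier results of these data known. Named were both members and the TRAV5D-4 copies, per name the 3 TRAJ and TRBV genes with most distinct clonotypes and those with the highest and lowest ratio to other TRAV genes (at least 20 clonotypes with the TRAV5 gene), the 3 TRAV genes most alike over tables, the most frequent clonotype of each table with at least 3 cells, clonotypes with 2 or more cells in both tables of an animal, and the 3 TRA sequences in most animals. Clonotypes and recurring chains beyond these were chosen after their values were seen. Python 3.11.15 with pandas, numpy and scipy was used.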

Additional observations from a re-analysis of the deposited data

Results flagged for a closer look

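The TRAV5 share of TRA-bearing cells in sublibrary 3 was 3.46%, below the next lowest of the 8 sublibraries, 3.70%, while the highest had 3.83%. Its gap to the nearest value was 0.654 of the whole range. The limit for such a gap was set so that chance passes it in about 1 in 20 sets of 8 values. The sublibraries mix all animals and tissues, and leaving any 1 of them out moved the pooled share by less than its counting interval.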

How the results depend on the processing

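The median TRAJ number of TRAV5-1 stayed within its interval under all 8 alternatives (23 under each) and in all leave-one-out runs over sublibraries and tables (23 to 23.5). That of TRAV5-4 was 40 without clonotypes found in more than 1 animal and 43 over chains reaching base 245, and it ran from 42 to 43 leaving out sublibraries or tables, with 43 without mouse-160B tumor. The pooled TRAV5 share, 3.72%, was 4.64% over distinct clonotypes, 4.36% with at least 2 TRA transcripts, 3.87% over cells with both chains, 3.19% with the names TRAV5-1 and TRAV5-4 alone, 4.96% without clonotypes of more than 1 animal, 3.86% without TRAV11-TRAJ18 cells in the denominator and 3.55% without the most frequent TRAV5 clonotype. Leaving out sublibraries or tables gave 3.38% (mouse-160B tumor out) to 3.86% (mouse-164B tumor out). The TRAV5-4 share of TRAV5 cells, 73.1%, was 70.003% over clonotypes, 85.2% with TRAV5D-4 not counted, 61.6% without clonotypes of more than 1 animal and 57.5% over chains reaching base 245, with 71.8 to 73.8% leaving out sublibraries or tables. The number of animals with the higher TRAV5 share in the thymus, 4, was 2 over distinct clonotypes and 3 or 4 leaving out sublibraries. The share of paired TRAV5 cells in expanded clonotypes, 14.2%, was 17.1% with multiplets kept, 15.8% by nucleotide sequences, 20.1% with at least 2 transcripts of both chains, 10.05% without barcodes with a second TRA or TRB chain, 9.55% without barcodes whose later well indices and sublibrary occur in another table, and 9.47% without the most frequent clonotype. Leaving out sublibraries or tables gave 6.39 to 15.9%. The alternatives on base 245, shared indices, the most frequent clonotype and chains that run past the V exon, and the values without single clonotypes or tables given with the results by gene, were chosen after seeing the data. No test over paired samples was made, because the labels place no sample in a group. The tables of an animal were set side by side as values only. Most chains rested on 1 or 2 transcripts, and the smallest tables held 20 TRAV5-4, 2 TRAV5-1 and 3 TRAV5D-4 clonotypes, which limits what can be seen in them.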
